A study of Danio rerio with 18 samples.

Results

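Proteasome genes were taken as the rows of the expression table whose symbol begins with psm, goes on with a letter from a to g and then a digit, which gave 57 of 25432 zebrafish genes. Of these, 48 had an FPKM (fragments scaled by gene model length and by all mapped fragments) of at least 1 in at least 4 of 18 libraries and were tested among 10547 genes that passed the same filter. The libraries were made from messenger RNA of zebrafish ovaries: mature eggs of wild-type fish (n = 5), mature eggs of sinhcaf-/- fish (n = 5), FG follicles of wild-type fish (n = 4) and FG follicles of sinhcaf-/- fish (n = 4). Each library pooled the eggs or the follicles of a single female, so that the replicates are fish. FG is not spelled out in the labels, which give no age, strain, allele or treatment. Sinhcaf protein works in the SIN3 complex, which represses genes through histone deacetylases.

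The proteasome is the protease that degrades proteins tagged with ubiquitin. Its core particle is a stack of rings of alpha (psma) and beta (psmb) subunits, of which psmb5, psmb6 and psmb7 encode the catalytic ones, and its regulatory particle is built from ATPases (psmc) that unfold the substrate and non-ATPase subunits (psmd) that receive it and remove the ubiquitin. The psme genes encode alternative caps, psmf1 a protein that binds and inhibits the core, and the psmg genes chaperones that assemble it, while psmb8, psmb9 and psmb10 replace the usual catalytic subunits in immune cells and after interferon. In the ovary, growing oocytes store messenger RNA and protein, and the proteasome is known for degrading cyclins and other regulators when the oocyte matures and the egg is activated.

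The level of sinhcaf ran from 0.361 to 1.59 FPKM in the wild-type eggs and from 0.184 to 0.351 in the mutant eggs, and from 0.615 to 3.05 (wild type) and 0.359 to 1.04 (mutant) in FG follicles, so that a single wild-type FG library lay within the mutant range. Of 9 oocyte markers in the table, 8 or 9 reached 1 FPKM in every library. Of 14 markers of granulosa cells, which surround the oocyte, the steroid enzyme gene cyp11a1 alone ran from 27.2 to 36.4 FPKM in wild-type eggs, 36.6 to 134 in mutant eggs, 37.9 to 80.6 in wild-type FG follicles and 43.9 to 113 in mutant FG follicles. The other 13 summed to 1.01 to 1.44 FPKM in wild-type eggs, 1.29 to 2.56 in mutant eggs, 19.9 to 35.8 in wild-type FG follicles and 35.8 to 110 in mutant FG follicles. Mitochondrial genes held 35.5% ± 1.97 of the summed FPKM in wild-type eggs, 43.4% ± 5.81 in mutant eggs, 15.3% ± 1.67 in wild-type FG follicles and 10.5% ± 3.0 in mutant FG follicles (SD). Mutant FG libraries 1 and 3 had the highest correlation of any pair within a group (r = 0.994 across tested genes), closely followed by wild-type egg libraries 1 and 3 (r = 0.993). Egg libraries 4 and 5 of both genotypes listed more genes at 1 FPKM (7682 to 7917) than egg libraries 1 to 3 (6929 to 7424). No counts were at hand, so the depth is unknown, and errors are those between fish.

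The 57 genes fell into every class of subunit named above, though not every subunit has a psm symbol (adrm1 and sem1 of the regulatory particle do not). They were 9 core alpha genes, 14 core beta genes (7 of the usual kind and 7 of the immune kind or specific to a tissue or to fish), 7 ATPases, 14 non-ATPase subunits, 3 psmd genes for chaperones of the regulatory particle (psmd5, psmd9, psmd10), 5 activators, psmf1, 3 psmg chaperones and psmc3ip, which encodes a partner of an ATPase with a role in meiotic recombination and is no subunit. The 9 genes below the filter were psma5, psma6l, psmb8a, psmb9a, psmb11a, psmb11b, psmb12, psmb13a and psme1. Just inside the filter were psmc1a, with 4 libraries at 1 FPKM or more, and psmd10, with 5, and just outside it psmb12 and psmb9a, with 3 each. The row of psma5, an essential core subunit, was listed at 0 in 17 of 18 libraries and at 0.0437 FPKM in the other, so a 0 in this table cannot be read as absence of the transcript. The rows of psmb11b and psme1 were listed at 0 throughout, psmb11a reached 0.0275 FPKM, and psma6l reached 1.17.

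In wild-type FG follicles, the summed level of the 57 genes was 1933 ± 175 FPKM (SD, n = 4), and the median of the 48 tested genes was 28.6 FPKM. The highest were psma3, a core alpha subunit, with 217, 267, 209 and 292 FPKM in libraries 1 to 4, and psmb4, a non-catalytic core beta subunit, with 98.0, 123, 112 and 115. The lowest of the tested genes were psme4a, at 0.478, 0.497, 0.312 and 0.531 FPKM, and psmc1a, at 1.79, 0.244, 1.28 and 1.58. Most of these genes encode parts of a complex with fixed stoichiometry, and their levels per length differed widely within a library, with an SD across the 48 tested genes of 1.67 on the log2(FPKM + 1) scale (mean of 4 libraries).

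In wild-type eggs, the sum was 677 ± 42 FPKM (SD, n = 5) and the median of the 48 tested genes was 3.28 FPKM. The highest genes were psmc3, an ATPase, with 114, 106, 117, 110 and 115 FPKM, and psme3, which encodes a nuclear activator that does not need ubiquitin, with 90.5, 70.4, 74.4, 65.7 and 59.4. The lowest tested genes were psme2 and psmc1a, at no more than 0.190 FPKM in any wild-type egg library. Of the 48 tested genes, 6 had no egg library at 1 FPKM or above, so they passed the filter through the FG follicles (psma6b, psmc1a, psmd2, PSMD4 (1 of many), psmd10 and psme2), and their direction between stages was set by the filter. With fewer than 4 egg libraries at 1 FPKM, psma1, psmb10, psmd4a and psmd9 also passed the filter only with the FG follicles.

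**Figure D1:**
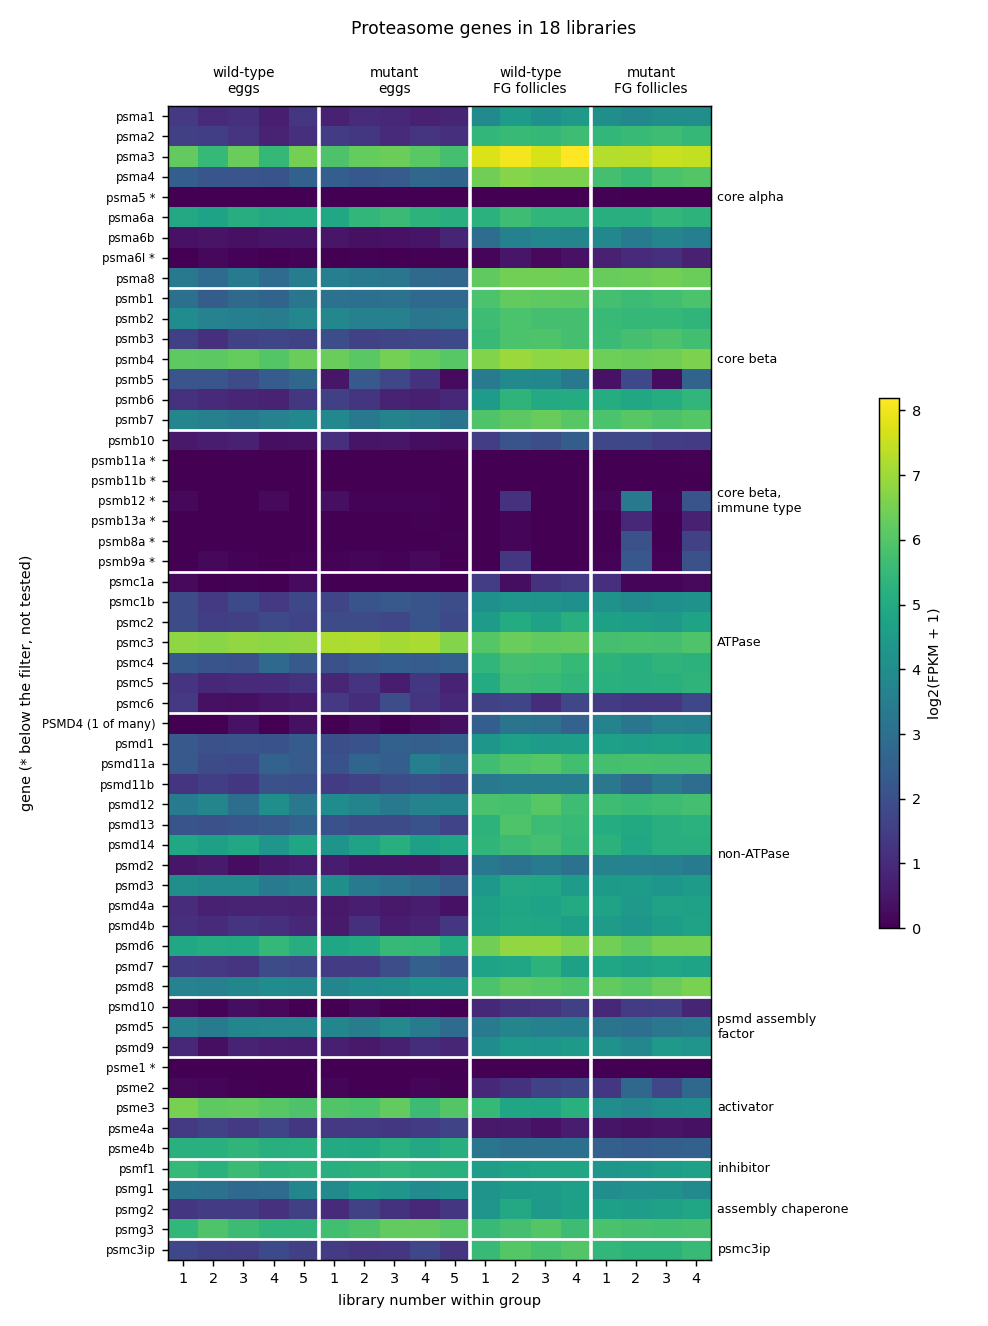
Each cell gives the level of 1 proteasome gene (rows, by role, with an asterisk for genes below the filter) in 1 library (columns, by group and library number), as log2(FPKM + 1). Most core and regulatory particle genes are brighter in the 8 FG follicle libraries, psmc3, psme3 and psme4b are brighter in the 10 egg libraries, and psmb8a, psmb9a, psmb12 and psmb13a stand out in mutant FG libraries 2 and 4.

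The labels name a stage for each library, and eggs were compared with FG follicles within each genotype. In wild-type fish, 41 of 48 tested proteasome genes were lower in eggs and 5 were higher, and limma's adjusted p over 10547 genes left 2 uncalled, psmd5 and psmg3. On the FPKM scale, most tested genes were lower in eggs: 82.9% of all tested genes were called, 60.8% as lower and 22.1% as higher. Among genes that passed the filter in eggs and in FG follicles separately, 31 of 37 proteasome genes were lower and 4 higher, beside 52.2% and 27.7% of 7378 genes. The median difference of the 48 genes was -2.35 on the log2(FPKM + 1) scale, against -0.85 over all tested genes. For genes past the filter in both stages, the medians were -2.35 for the proteasome genes and -0.53 for all. When the libraries were scaled by the median of gene ratios instead, the median of all tested genes moved to -0.10. That of the 48 proteasome genes moved to -1.26, with 34 lower and 9 higher. Under that scaling, 42.6% of all tested genes were lower and 38.4% higher. It centres each library on its median gene ratio, so a small median over all genes follows from the method. A general fall in eggs thus depends on the scaling, and this scaling cannot test it. Fewer cells of a type and less RNA per cell cannot be told apart in these pooled samples.

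Of the genes that passed the filter in eggs and in FG follicles separately, 5 of 5 core alpha genes, 7 of 7 core beta genes of the usual kind and 11 of 11 non-ATPase genes were lower in wild-type eggs. Under the median-of-ratios scaling, psma6a (0.70, adjusted p = 0.000796) and psmb4 (0.54, adjusted p = 0.00657) were called higher, and psmd14 (0.32, adjusted p = 0.161) and psmd3 (0.21, adjusted p = 0.534) changed sign without passing. The core alpha genes summed to 538 ± 59.6 FPKM in FG follicles and 111 ± 25.6 in eggs, and the core beta genes of the usual kind to 398 ± 40.7 and 108 ± 10.7. The non-ATPase genes summed to 529 ± 59.3 FPKM in FG follicles and 113 ± 5.89 in eggs, with no overlap between stages for any of these 3 sums. The ATPases summed to 211 ± 22.9 and 123 ± 5.35, and psmc3 alone made up most of the egg value.

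Among core alpha genes, psma4 had 4.45, 3.54, 3.49, 3.40 and 4.82 FPKM in the wild-type eggs and 85.3, 103, 93.8 and 95.5 in the wild-type FG follicles. The core alpha gene psma2 had 1.90, 1.88, 1.42, 0.745 and 1.14 FPKM in eggs and 41.6, 45.6, 42.6 and 48.7 in FG follicles. Every egg library was far below every FG library for both genes, with log2 differences of -4.28 (SE 0.13) and -4.26 (SE 0.15). Of the core beta genes, psmb3 differed most, with 1.91, 1.16, 2.05, 2.30 and 2.03 FPKM in eggs and 46.1, 58.1, 60.8 and 53.9 in FG follicles, a log2 difference of -4.28 (SE 0.13). The ATPase psmc5 had 1.35, 0.919, 0.946, 0.977 and 1.28 FPKM in eggs and 32.0, 48.5, 45.9 and 40.8 in FG follicles (log2 difference -4.34, SE 0.15). The meiotic gene psmc3ip, taken in by its symbol, fell in the same range, from 57.1 ± 8.84 FPKM (SD, n = 4) in FG follicles to 2.12 ± 0.320 (SD, n = 5) in eggs. The limma adjusted p of these genes lay between 4.3e-15 for psma4 and 1.67e-14 for psmc5.

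The 5 genes that were higher in wild-type eggs included 3 of the 4 tested activators (2 of them past the filter in both stages), the inhibitor and a single ATPase. The largest difference was in psme4b, a gene for a large nuclear activator cap, with 35.9, 36.2, 40.4, 35.2 and 36.0 FPKM in eggs and 8.24, 7.12, 7.17 and 6.90 in FG follicles. Its log2 difference was 2.18 (SE 0.10, limma adjusted p = 2.38e-13). Its paralog psme4a was far lower in level, with 1.82 ± 0.329 FPKM in eggs and 0.454 ± 0.0974 in FG follicles, and differed in the same direction (0.95, SE 0.10). The stages did not overlap for either copy. No FG library had psme4a above 0.531 FPKM, so this gene passed the filter through the eggs. Its direction between stages was set by the filter. The activator gene psme3 stood at 43.5, 27.2, 26.4 and 35.8 FPKM in wild-type FG follicles, below all 5 egg values given above (log2 difference 1.11, SE 0.16). The inhibitor gene psmf1 had 41.2 ± 4.42 FPKM in eggs and 26 ± 2.02 in FG follicles, and psmc3 had 64.0, 78.7, 73.0 and 74.0 in FG follicles against at least 106 in eggs. These log2 differences were 0.64 (SE 0.11) and 0.63 (SE 0.11). The fourth tested activator gene, psme2, had no egg library above 0.130 FPKM and was tested only through its FG levels.

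**Figure D2:**
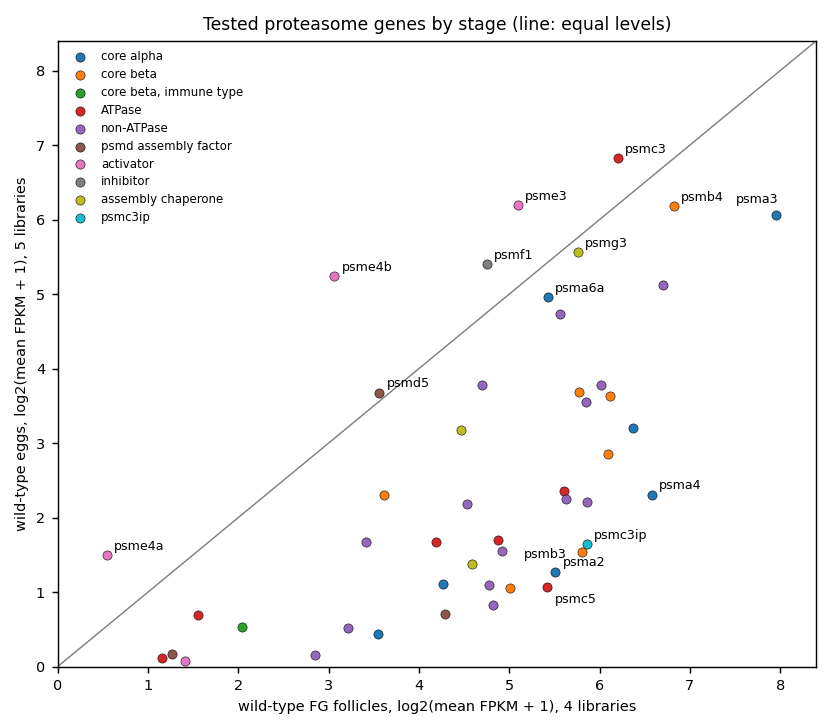
Each point is 1 of the 48 tested proteasome genes, coloured by role, with its mean level in 4 wild-type FG follicle libraries on the horizontal axis and in 5 wild-type egg libraries on the vertical axis, both as log2(mean FPKM + 1). The line marks equal levels, and psme4b, psme3, psme4a, psmf1 and psmc3 lie above it while most genes lie well below.

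In sinhcaf-/- fish, 35 of the 48 genes were lower in eggs than in FG follicles and 5 were higher, beside 58.3% and 23.4% of all tested genes (81.7% in either direction). Among genes past the filter in both stages, 26 of 37 were lower and 4 higher, beside 48.9% and 29.3% of 7378. The 5 higher genes were those of the wild type: psme4b (log2 difference 2.57, SE 0.10), psme3 (1.92, SE 0.16), psmc3 (1.25, SE 0.11), psme4a (1.04, SE 0.10) and psmf1 (0.76, SE 0.11). Of these, psme4a passed the filter through the eggs alone, so its direction was set by the filter here too. The 5 with the largest falls were psma2 (-4.28, SE 0.15), psmc5 (-4.26, SE 0.15), psmb6 (-4.06, SE 0.19), psmd4a (-4.05, SE 0.12) and psmb3 (-4.0, SE 0.13). Catalytic psmb6 had 33.6 ± 5.32 FPKM in mutant FG follicles and 1.1 ± 0.520 in mutant eggs, and psmd4a, a ubiquitin receptor that did not pass the filter in eggs alone, 23.8 ± 2.62 and 0.493 ± 0.114. The median of the 48 genes was -2.14, against -0.79 over all tested genes. Under the median-of-ratios scaling these medians were -1.28 and -0.09, with 31 genes lower and 11 higher. Of all tested genes, 42.6% were lower and 38.4% higher under that scaling. For genes past the filter in both stages, the medians on the FPKM scale were -2.06 for the proteasome genes and -0.40 for all.

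The study compared mutant with wild-type fish at each stage. In FG follicles, 12 of the 48 proteasome genes changed in the mutant, 9 of them lower and 3 higher, where 23.5% of all tested genes were called. The 9 lower genes are 18.8% of the 48, beside 13.4% of all tested genes, and the 3 higher ones 6.25%, beside 10.1%. The falls lay in the core (psmb5, psma4, psmb4), in the regulatory particle (psmc1a, psmc3, psmd13), in activators (psme3, psme4b) and in psmc3ip, and the rises in PSMD4 (1 of many), psmd2 and psme2. Of these, psmc1a and psme2 passed the filter only with the genotype in which they were higher. The median change was -0.21 on the log2 scale, against -0.05 over all tested genes, and 36 of the 48 genes lay below the latter. The 57 genes summed to 1610 ± 78.3 FPKM in the mutant and 1933 ± 175 in the wild type.

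The gene with the largest change was psmb5, which encodes the catalytic subunit with chymotrypsin-like activity. It had 9.18, 13.7, 13.1 and 8.95 FPKM in wild-type FG libraries 1 to 4 and 0.327, 2.53, 0.198 and 5.11 in the mutant ones. The groups did not overlap, and the mutant libraries fell into a low pair (1 and 3) and a higher pair (2 and 4). The log2 change was -2.31 (SE 0.46, limma adjusted p = 0.0013). The other catalytic genes did not pass the test: psmb6 was at 31.2 ± 7.33 FPKM in wild-type and 33.6 ± 5.32 in mutant FG follicles, with a 95% interval of the log2 change from -0.29 to 0.54, and psmb7 at 68.3 ± 7.29 and 61.7 ± 4.34, with an interval from -0.43 to 0.15.

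In the alpha ring, psma4 fell from 85.3, 103, 93.8 and 95.5 FPKM in the wild type to 53.7, 44.5, 58.2 and 62.8 in the mutant. All 4 mutant values were below all 4 wild-type ones, and the log2 change was -0.78 (SE 0.14, limma adjusted p = 0.000462). The beta subunit gene psmb4 fell from 98.0, 123, 112 and 115 FPKM to 83.4, 80.1, 84.9 and 94.3, again without overlap (-0.38, SE 0.11, adjusted p = 0.0181). The most abundant member, psma3, had 246 ± 39.97 FPKM in the wild type and 166 ± 11.6 in the mutant, without overlap, and missed the threshold (-0.55, SE 0.20, adjusted p = 0.059).

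Of the regulatory particle, the ATPase gene psmc3 had 53.3, 55.1, 54.3 and 60.2 FPKM in mutant FG follicles, all below the wild-type values given above (-0.37, SE 0.11, adjusted p = 0.0218). The lid subunit gene psmd13 had 38.8, 60.8, 47.9 and 45.6 FPKM in the wild type and 33.0, 30.8, 34.9 and 36.2 in the mutant, without overlap (-0.49, SE 0.15, adjusted p = 0.0222). The ATPase gene psmc1a was low and uneven, at 1.79, 0.244, 1.28 and 1.58 FPKM in the wild type and 1.20, 0.113, 0.109 and 0.161 in the mutant, and its groups overlapped (-0.68, SE 0.22, adjusted p = 0.032). Without the wild-type FG libraries psmc1a would not have passed the filter, so the direction of its call was favoured by the filter. Its paralog psmc1b stood at 17.3 ± 0.971 FPKM in the wild type and 16.3 ± 1.68 in the mutant and did not pass.

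Of the activators, psme3 had 43.5, 27.2, 26.4 and 35.8 FPKM in wild-type FG follicles and 15.4, 13, 15.9 and 16.5 in mutant ones. The mutant libraries lay close together and below every wild-type library (-1.06, SE 0.17, limma adjusted p = 0.000133). The activator gene psme4b had 8.24, 7.12, 7.17 and 6.90 FPKM in the wild type and 4.69, 4.28, 4.60 and 4.86 in the mutant, without overlap (-0.57, SE 0.10, adjusted p = 0.000446). The gene psmc3ip had 45.8, 65.2, 54.6 and 62.9 FPKM and 41.9, 38.2, 38.3 and 45.0, also without overlap (-0.46, SE 0.14, adjusted p = 0.0217).

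Among the 3 higher genes, PSMD4 (1 of many), a copy annotated for a ubiquitin receptor, had 4.51, 7.84, 7.40 and 4.96 FPKM in the wild type and 11.8, 8.39, 11.4 and 11 in the mutant. The groups did not overlap (0.72, SE 0.17, adjusted p = 0.00399). The other copies, psmd4a and psmd4b, did not pass, with 27.3 ± 3.14 against 23.8 ± 2.62 FPKM and 26.3 ± 2.50 against 22.3 ± 2.63. The scaffold gene psmd2 had 8.87, 7.55, 9.11 and 7.45 FPKM in the wild type and 11.8, 11.3, 10.8 and 9.23 in the mutant, with the groups just apart (0.35, SE 0.12, adjusted p = 0.039). The gene psme2, for a subunit of the activator that interferon induces, had 0.864, 1.28, 2.03 and 2.43 FPKM and 1.49, 5.61, 2.37 and 5.61, and its groups overlapped (0.76, SE 0.25, adjusted p = 0.0317). Without the mutant FG libraries psme2 would not have passed the filter, so the direction of its call was favoured by the filter. Its high values were those of mutant libraries 2 and 4, and the call was lost without either of these or without wild-type library 1 or 2 (adjusted p up to 0.119). How the authors' counting treated reads shared by copies of a gene is not given in the sources used here. Sequences of the psmd4, psma6, psmc1, psmd11 and psme4 copies were not compared, so how far shared reads affect their values is unknown.

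**Figure D3:**
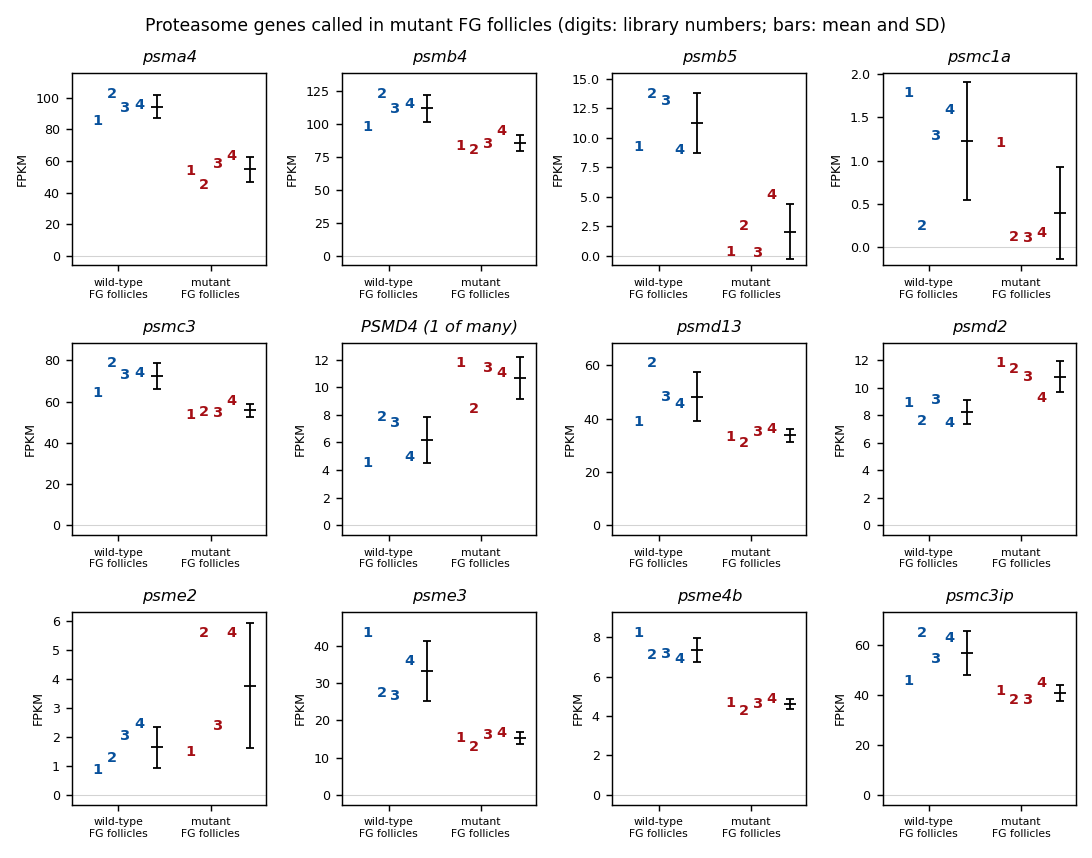
FPKM of the 12 proteasome genes called in mutant FG follicles, with each digit at the level of the library of that number and a bar for the mean and SD of 4 libraries. The wild-type and mutant digits overlap in psmc1a and psme2, and in the other 10 panels they do not.

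The calls for psme3, psme4b, psma4 and psmb5 held in all 30 alternatives, and the other 8 were lost in 2 (PSMD4 (1 of many)) to 13 (psmc1a). The count of lower genes was 5 without wild-type FG library 2 and 5 without mutant FG library 2, 4 under the median-of-ratios scaling, 5 as TPM without mitochondrial genes and 14 with FG libraries alone in the fit. The count of higher genes was 1 without each of these libraries, 1 as TPM without mitochondrial genes, 1 with FG libraries alone in the fit and 0 with a pseudocount of 0.1. Of all tested genes, 8.14% were lower and 8.35% higher under the median-of-ratios scaling. As TPM without mitochondrial genes, 9.42% were lower and 8.23% higher, beside 13.4% and 10.1% in the reported fit. With mutant FG libraries 1 and 3 averaged to a single sample, 7 genes were lower and 2 higher, and with only these libraries as the mutant, 5 and 1. For alternatives other than the scalings, the share of all tested genes is not given here. A shift in those counts cannot be told apart from a shift in calls over all genes. The groups did not overlap for 16 of the 48 genes, which is 33.3%, beside 29% of all tested genes. Granulosa markers moved with genotype in the same libraries, with 4 of 8 tested markers higher in the mutant and none lower, beside 10.1% and 13.4% of all tested genes, and their part in these changes was not tested.

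In eggs, 3 of the 48 proteasome genes were higher in the mutant and none was lower by limma's adjusted p, a share of 6.25% where 15.1% of all tested genes were called, 7.35% as higher and 7.71% as lower. At an unadjusted p under 0.05, 8 were higher and 4 lower, beside 14.9% and 13.8% of all tested genes. Of the 3, psmg1 and psmg3 encode assembly chaperones, out of 3 psmg genes tested, and psmc6 an ATPase. The median change over the 48 genes was 0, against 0.04 over all tested genes, and the 57 genes summed to 677 ± 42 FPKM in wild-type and 723 ± 56.0 in mutant eggs.

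The chaperone gene psmg1 had 7.81, 7.49, 5.96, 6.21 and 12.6 FPKM in wild-type eggs and 13.8, 20.9, 18.2, 14.4 and 16.4 in mutant eggs. All mutant values lay above all wild-type ones, although wild-type egg library 5 stood apart from the other wild-type libraries. The log2 change was 1.0 (SE 0.16, limma adjusted p = 0.000243). This call was lost in 1 of 30 alternatives, that with egg libraries 4 and 5 alone (adjusted p = 0.0801). The usual partner of psmg1 in the chaperone that starts the alpha ring, psmg2, did not pass, with 1.60 ± 0.268 FPKM in wild-type and 1.33 ± 0.456 in mutant eggs. The third chaperone gene, psmg3, had 41.6, 60.8, 48.6, 40.5 and 39.9 FPKM in wild-type eggs and 51.1, 59.6, 73.9, 73.6 and 65.9 in mutant eggs, with overlap through wild-type library 2 (0.48, SE 0.13, adjusted p = 0.0173). This call was lost under the median-of-ratios scaling (0.36, adjusted p = 0.165), without mutant egg library 4 (adjusted p = 0.0516) and with egg libraries alone in the fit, among 4 of 30 alternatives (adjusted p from 0.00369 to 0.308). The ATPase gene psmc6 had 1.57, 0.291, 0.251, 0.422 and 0.520 FPKM in wild-type eggs and 1.58, 1.12, 2.83, 1.40 and 0.940 in mutant eggs, and wild-type library 1 lay within the mutant range (0.69, SE 0.21, adjusted p = 0.03). The psmc6 call was lost in 10 of 29 alternatives (adjusted p from 0.00385 to 0.171), among them no filter on low values, egg libraries alone in the fit, and leaving out wild-type egg library 2, 3, 4 or 5 or mutant egg library 3 or 4. Its log2 change was 1.40 with a pseudocount of 0.1 and 1.26 as TPM without mitochondrial genes.

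The catalytic gene psmb5 was uneven between mutant eggs, at 0.395, 3.84, 2.36, 1.31 and 0.187 FPKM, against 3.47, 3.47, 2.75, 4.24 and 5.62 in wild-type eggs. A single mutant value, that of library 2, lay inside the wild-type range with library 3 just under it, and the change did not pass (-1.08, SE 0.41, adjusted p = 0.0864). The other core and regulatory particle genes did not pass either, apart from psmc6, and their log2 changes ran from -0.58 for psmd3 to 0.59 for psmd11a. With the replicate number as a block within each stage, both passed, psmd3 as lower (adjusted p = 0.0281) and psmd11a as higher (adjusted p = 0.0225), which made 4 higher and 1 lower. The higher count was 7 without mutant egg library 1 and 1 without mutant egg library 4, 8 as TPM without mitochondrial genes and 1 with egg libraries alone in the fit. As TPM without mitochondrial genes, 12% of all tested genes were higher, beside 7.35% in the reported fit. For the other fits named here the share of all tested genes is not given, so their counts have no background beside them. The share of mitochondrial genes was higher in mutant than in wild-type eggs, as given above.

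The change in eggs differed from the change in FG follicles for 4 of the 48 genes by a test of the difference itself, each with the more positive change in eggs, and for none in the other direction. Over all tested genes, 6.95% were called, 4.23% in the first direction and 2.72% in the second. At an unadjusted p under 0.05, 13 genes differed in the first direction and 3 in the second, beside 13.9% and 8.5% of all tested genes. For psmg1 the change was 1.0 in eggs and -0.40 in FG follicles, where its level was 18, 21.3, 21.6 and 23.7 FPKM in the wild type and 15.1, 16.6, 17.6 and 13.7 in the mutant. The change in FG follicles did not pass by itself (limma adjusted p = 0.119). The difference was 1.41 on the log2 scale (SE 0.24, limma adjusted p = 0.00129), and the mutant values were above the wild type in eggs and below it in FG follicles without overlap.

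For psma4, the change of 0.19 (SE 0.12) in eggs, where mutant libraries had 4.52, 3.81, 4.09, 5.49 and 5.31 FPKM, stood against -0.78 in FG follicles, a difference of 0.97 (SE 0.18, adjusted p = 0.00297). For psmc3, mutant eggs had 145, 149, 135, 143 and 102 FPKM, of which the last was under every wild-type egg library, and the change of 0.25 (SE 0.10) in eggs differed from that in FG follicles by 0.62 (SE 0.15, adjusted p = 0.0154). For psme3, mutant eggs had 61.6, 57.6, 73.3, 48.1 and 63.0 FPKM, overlapping the wild type, and the difference was 0.81 (SE 0.22, adjusted p = 0.0318). Under the median-of-ratios scaling, 2 of the 4 differences passed, those of psmg1 and psma4, and psma4 alone passed in all 29 alternatives.

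**Figure D4:**
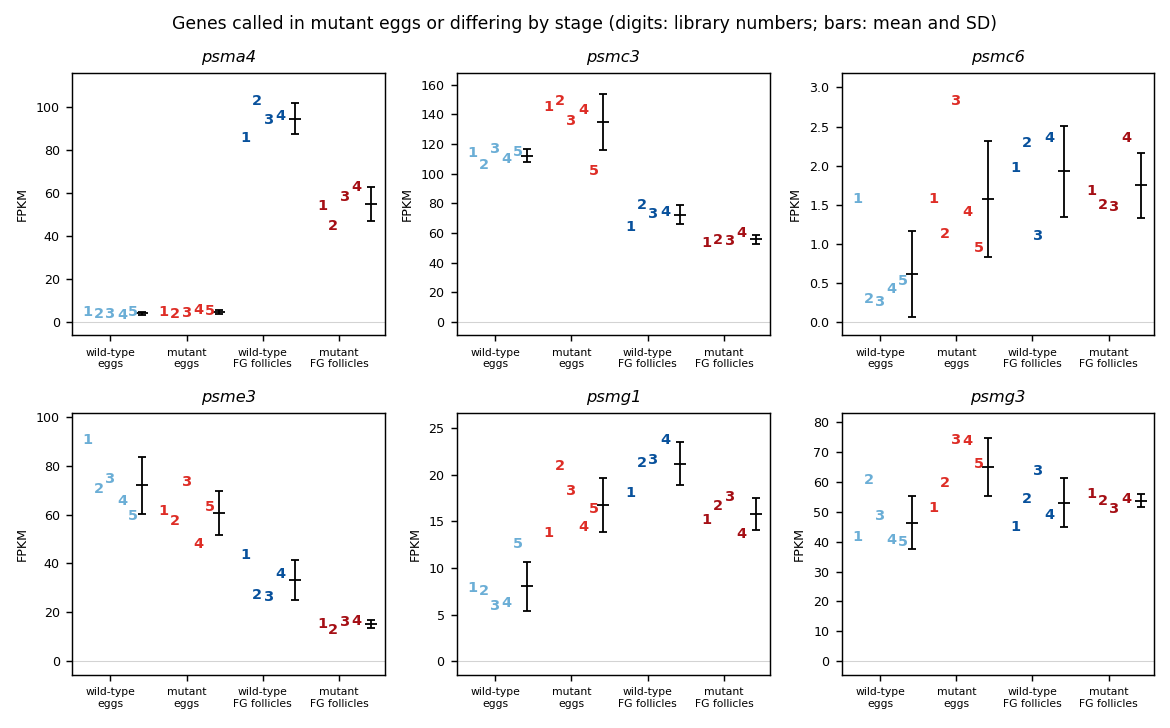
FPKM of the 6 genes called in mutant eggs or for the difference between stages, in the 4 groups, with each digit at the level of the library of that number and a bar for the mean and SD. In psmg1 the mutant eggs lie above the wild-type eggs while the mutant FG follicles lie below the wild-type FG follicles, and in psma4 and psme3 the genotypes part in FG follicles.

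The genes of the immune form of the proteasome were low or listed at 0 in most libraries, and 4 of them were above 0.6 FPKM in the same mutant FG libraries. In mutant FG libraries 1 to 4, psmb8a had 0, 3.13, 0 and 2.0 FPKM, psmb9a 0.0483, 3.63, 0.0472 and 3.10, psmb12 0.0691, 8.90, 0.0688 and 3.40, and psmb13a 0, 0.878, 0 and 0.683. In wild-type FG libraries, library 2 had 0.0815, 1.49, 1.26 and 0.0790 FPKM of these genes in the same order, and libraries 1, 3 and 4 were listed at 0 for all 4. So these genes were seen in mutant libraries 2 and 4 and, at lower levels, in wild-type library 2, and in eggs none went above 0.261 FPKM. None of the 4 passed the filter, so none was tested, and genotype groups overlap for all of them.

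In the annotation of assembly GRCz12tu these 4 genes follow each other directly within the region of the major histocompatibility complex (MHC), which in zebrafish is known to occur in haplotypes with different gene content. The genes psmb12 and psmb13a are beta genes known from this region in fish. The nearest pair of genes of the table on each side of the run was read too, a choice made after the values were seen. On one side, the class I gene mhc1uba was listed at 0 in all 8 FG libraries, and tapbp.2, a copy of the gene for the peptide-loading chaperone tapasin, had 2.06, 1.48, 1.56 and 2.08 FPKM in mutant FG libraries 1 to 4, with no split between libraries 2 and 4 and the others. On the other side, tap2a, a transporter of antigenic peptides, had 0, 0.215, 0 and 0.226 FPKM in the mutant libraries, and brd2a, a chromatin reader, had 28.3, 13.9, 25.5 and 14.0, so that it was lower in libraries 2 and 4. In wild-type FG libraries brd2a had 15.7, 18.3, 14.1 and 21.5 FPKM. The usual catalytic gene psmb5, which lies next to psmb11a on its chromosome, was also higher in mutant FG libraries 2 and 4 than in 1 and 3, whereas psmb10, the third immune catalytic gene, did not follow: it had 1.82, 3.35, 2.89 and 4.39 FPKM in wild-type and 2.37, 2.45, 1.80 and 1.72 in mutant FG libraries.

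Other immune genes, and the activator gene psme2 described above, were also highest in mutant FG libraries 2 and 4. The gene b2m, for the light chain of MHC class I, had 3.60, 12.4, 3.75 and 8.18 FPKM in the mutant and 1.86, 1.26, 1.73 and 0.914 in the wild type. The class II chaperone gene cd74a had 1.80, 8.3, 1.55 and 4.31 in the mutant, and stat1b, a transcription factor of the interferon response chosen after its values were seen, 0.152, 2.1, 0.108 and 2.48. The 13 leukocyte markers summed to 7.88, 38.3, 8.75 and 20.7 FPKM in mutant FG libraries and to between 4.90 and 6.29 in the wild type, sums that b2m, cd74a, cd74b and mhc2dab, all of antigen presentation, largely made up. The other 9 markers summed to 0.361, 3.47, 0.291 and 2.05 FPKM in mutant FG libraries and to between 0.347 and 1.22 in the wild type. Wild-type library 2, where psmb9a and psmb12 were seen, had the lowest wild-type sum of the 13 markers (4.90) and of these 9 (0.347). Among the 9, marco had 0.0334, 1.0, 0.0208 and 0.735 FPKM in mutant FG libraries and spi1b 0.0542, 1.0, 0.0364 and 0.496. In mutant library 4, csf1ra (0.0274) was below mutant library 1 (0.0558), and ptprc (0.217) was below wild-type library 3 (0.292). The 13 granulosa markers other than cyp11a1 also had their highest sums in mutant libraries 2 and 4, at 36.0, 110, 35.8 and 77.2 FPKM in mutant libraries 1 to 4. Of these sums, inha alone made up 6.45, 59.0, 7.00 and 36.1 FPKM. Not every granulosa marker followed: cyp11a1 had 102, 113, 111 and 43.9 FPKM in the same libraries, and gsdf 1.02, 0.907, 0.615 and 0.679. Of the defining leukocyte markers, ptprc and lcp1 were highest in mutant library 2, at 0.597 and 0.549 FPKM, and next in mutant library 4 for lcp1 (0.330), while mpeg1.1 was listed at 0 in every library and coro1a in all 4 mutant FG libraries. Erythrocyte markers summed to 2.64, 7.22, 1.19 and 7.76 FPKM in mutant FG libraries 1 to 4. In wild-type FG libraries these sums ran from 2.33 to 6.42, highest in library 2. Of the theca and stromal markers, dcn had 0.879, 2.21, 0.52 and 1.98 FPKM in mutant libraries 1 to 4. There acta2 had 5.58, 16.04, 6.43 and 28.3 FPKM, beside 27.8 in wild-type library 4. Not all markers of these lists followed, cyp17a1, pdgfra and slc4a1a among those that did not. The part of leukocytes, granulosa cells or these other cells in the levels was not tested.

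**Figure D5:**
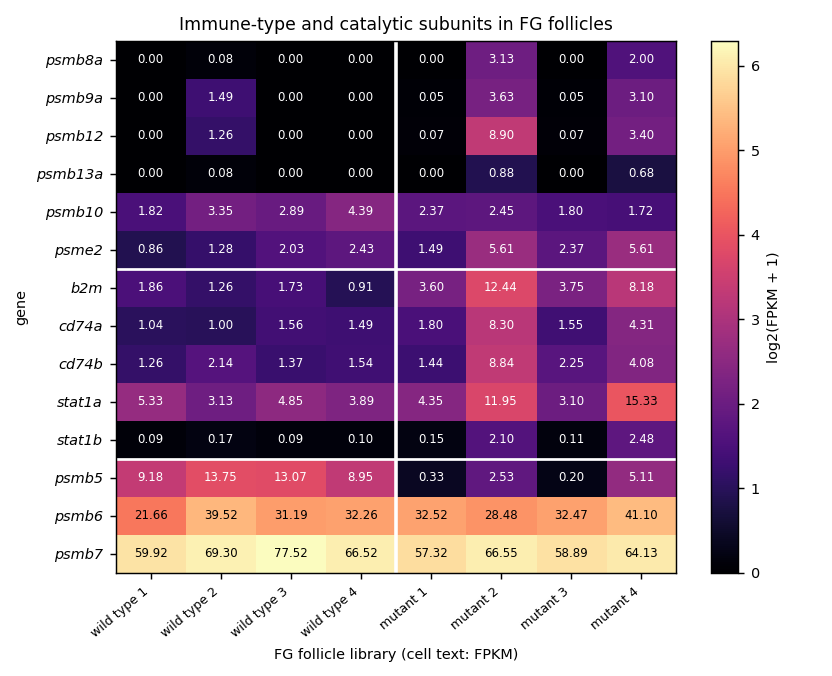
Levels in the 8 FG follicle libraries of immune-type proteasome genes (top), other immune genes (middle) and the 3 usual catalytic genes (bottom), with colour for log2(FPKM + 1) and the FPKM printed in each cell. Apart from psmb10, which is brightest in wild-type library 4, the top and middle blocks are brightest in mutant libraries 2 and 4. The genes stat1a and stat1b were chosen after their values were seen. The row of psmb5 is darkest in mutant libraries 1 and 3.

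Genes that work with the proteasome were read from a list of 20 symbols outside the psm family, of which 14 were tested. In FG follicles 4 were lower in the mutant, which is 28.6% beside 13.4% of all tested genes, and none was higher. The 4 were txnl1, a thioredoxin-like protein bound to the regulatory particle, akirin2, a factor for nuclear import of proteasomes, pomp, the core maturation protein, and zfand5a, a proteasome-binding protein. In wild-type FG libraries txnl1 had 64.9, 69.9, 79.2 and 63.0 FPKM, and in mutant ones 28.5, 27.8, 30.7 and 33.2 (log2 change -1.18, SE 0.12, limma adjusted p = 1.43e-06). The same gene fell in eggs, from 142, 163, 137, 150 and 162 FPKM to 59.3, 43.7, 64.7, 50.2 and 45.7, with no overlap (-1.51, SE 0.11, adjusted p = 1.19e-08). It was the partner gene with the largest change at both stages. In eggs 2 of the 14 were lower and 1 higher (14.3% and 7.14%, beside 7.71% and 7.35% of all tested genes). There akirin2 was lower too (-0.41, SE 0.11, adjusted p = 0.0199), and usp14, a deubiquitinase that docks on the regulatory particle, was higher (0.43, SE 0.14, adjusted p = 0.0441); it stands on the next list too. In FG follicles akirin2 went from 58.1 ± 6.43 to 39.3 ± 4.0 FPKM and pomp from 242 ± 20.5 to 182 ± 35.9. The nfe2l1a, nfe2l1b and nfe2l2a genes, whose products in mammals activate proteasome genes, were at or below 0.646 FPKM in every library. Their relative nfe2l2b had 1.06, 1.37, 1.40 and 0.920 FPKM in wild-type and 1.45, 0.691, 1.63 and 1.30 in mutant FG libraries, and at most 0.0601 in eggs.

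Of 23 tested genes for ubiquitin supply and shuttling, 3 were higher and 3 lower in mutant eggs, and 1 was higher and 4 lower in mutant FG follicles. These are 13% each way in eggs, beside 7.35% higher and 7.71% lower over all tested genes, and 4.35% higher and 17.4% lower in FG follicles, beside 10.1% and 13.4%. The largest falls of this list at both stages were in vcp, the ATPase that extracts ubiquitin-tagged proteins for the proteasome, and in ubb, a polyubiquitin gene. In wild-type FG follicles vcp had 20.3, 28.6, 23.1 and 27.2 FPKM and in mutant ones 1.16, 1.11, 1.15 and 1.34, while eggs had 3.31 ± 1.0 FPKM in the wild type and 0.140 ± 0.0588 in the mutant. Neither stage showed overlap, and the log2 changes were -3.55 (SE 0.16, limma adjusted p = 6.73e-12) and -1.89 (SE 0.14, adjusted p = 1.74e-08). The ubb row went from 8.15 ± 0.612 to 0.0721 ± 0.0255 FPKM in FG follicles and from 4.41 ± 0.832 to 0.0523 ± 0.0480 in eggs, without overlap. The more abundant ubc did not pass, with 265 ± 41.9 and 244 ± 15.7 FPKM in FG follicles. Ubiquitin genes share repeated sequence, so how reads were divided among them is uncertain. Cofactors of vcp did not move together: in FG follicles faf2 fell (-0.59, SE 0.11), ubxn4 fell (-0.71, SE 0.25) and nploc4 rose (0.56, SE 0.15).

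In the same annotation, 55 of the 57 genes matched by symbol. Of these, psmc2 and psmb10 lie on the chromosome of sinhcaf, and psmc2 is 48 genes away from it. The ATPase gene psmc2 did not pass in either genotype comparison, with 28.3 ± 5.77 and 23.4 ± 2.39 FPKM in wild-type and mutant FG follicles and 2.23 ± 0.353 and 2.71 ± 0.380 in wild-type and mutant eggs.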

How the data were processed

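FPKM values were deposited by the authors as a single table of 25432 Ensembl genes and 18 libraries. Per the labels' protocols, RNA had an integrity number of at least 7 and libraries were made with a stranded mRNA kit. The submitters' processing notes name Trimmomatic, HISAT2, Cufflinks, HTSeq and the build GRCz11 without versions or roles, so which tool made the values and whether strand was used is not given in the sources used here. Every library column was used. No counts were at hand, so the depth is unknown.

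Values were taken as log2(FPKM + 1), which draws changes of low genes towards 0. The 10547 genes that reached 1 FPKM in 4 libraries or more were fitted with limma 3.58.1 (lmFit, eBayes with trend) in R 4.3.3 with 4 group means and 14 residual degrees of freedom. Calls are Benjamini-Hochberg adjusted p under 0.05 over all genes tested. The script was tested on simulated data: in eggs it recovered 84% of 100 genes changed by 1 on the log2 scale and 99% of 100 changed by 2, and in FG follicles 75% and 99%. False calls were 6.63% of the calls in eggs and 2.79% in FG follicles. The changed genes had a mean log2(FPKM + 1) above 2 and the errors were independent and normal, so recovery of lower genes was not tested. Symbols are those of the table. The annotation at hand is of another assembly, GRCz12tu, and was used for gene order only.

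Same-numbered egg libraries deviated together (r = 0.12, 0.11, 0.36, 0.45 and 0.24 for numbers 1 to 5), while FG libraries did not (r = -0.07, -0.12, -0.02 and -0.04). Libraries of different numbers were not compared, so pairing by number was not tested. It cannot be told apart from the split of egg libraries by genes listed, given above. The reported calls come from a fit without a replicate block. The members, the lists and the tests were chosen with earlier results of these data known. Genes named with values are those called in a genotype comparison or its difference, the 5 largest stage differences each way, the 2 highest and 2 lowest by level in each wild-type group, the immune-type genes, and genes of the partner lists. Alternatives were another pseudocount, filter, scaling or set of libraries, a replicate block and leaving out each library.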

Additional observations from a re-analysis of the deposited data

Results flagged for a closer look

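In 12 of 78 groups of 4 or 5 libraries, a single library stood apart from the others of its group by Dixon's criterion. In 6 of these every other library of the group was listed at 0, so that any value above 0 meets the criterion. Of the other 72 groups, 6 met it. The criterion is set to about 5% for independent, normally distributed values. The FPKM values of genes from the same libraries are not of that kind, so an excess over chance was not tested. In wild-type eggs, the values that stood apart were psmg1 in library 5 (12.6 FPKM), psmc6 in library 1 (1.57 FPKM) and psme4b in library 3 (40.4 FPKM). In mutant eggs they were psmb10 in library 1 (1.15 FPKM), psmb12 in library 1 (0.261 FPKM), psmb8a in library 5 (0.0367 FPKM) and psmb13a in library 4 (0.0268 FPKM). In mutant FG follicles, psmc1a in library 1 (1.20 FPKM) stood apart. In wild-type FG follicles, library 2 stood apart for all 4 neighbouring immune-type genes, psmb9a (1.49 FPKM), psmb12 (1.26 FPKM), psmb8a (0.0815 FPKM) and psmb13a (0.0790 FPKM). The groups with every other library at 0 were these 4 and those of psmb8a and psmb13a in mutant eggs.

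The genotype change differed between eggs and FG follicles, by limma's test of the difference, for psmg1 (1.41 on the log2 scale, eggs minus FG follicles), psma4 (0.97), psme3 (0.81) and psmc3 (0.62).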

How the results depend on the processing

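Of 294 counts of called genes under alternatives, 260 stayed within 1.5 times the value reported, and of 1141 values of the genes called in a genotype comparison or among the 5 largest stage differences each way, each in that comparison, 1049 kept direction and call, 92 lost the call and none turned. Of the other genes called between stages, psma6a, psmb4, psmd14 and psmd3 in the wild type and psmd14 in the mutant changed sign under the median-of-ratios scaling.

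In eggs, the count of higher genes (3) was 8 as TPM without mitochondrial genes and 1 with egg libraries alone, and 1 to 7 when leaving out each library. As TPM without mitochondrial genes, 12% of all tested genes were higher in mutant eggs, beside 7.35% in the reported fit. The count of lower genes (0) was 1 with a pseudocount of 0.1 (psmd4a), 2 under the median-of-ratios scaling (psmd13, psmb5), 0 to 1 when leaving out each library, 1 with mutant FG libraries 1 and 3 alone (psmb5) and 1 with egg libraries 4 and 5 alone (psmd3). Under the median-of-ratios scaling, 11.4% of all tested genes were lower in mutant eggs, beside 7.71% in the reported fit. In FG follicles, the count of higher genes (3) was 0 with a pseudocount of 0.1, 1 as TPM without mitochondrial genes, 1 with FG libraries alone, 1 to 3 when leaving out each library and 1 with mutant FG libraries 1 and 3 alone. The count of lower genes (9) was 4 under the median-of-ratios scaling, 5 as TPM without mitochondrial genes, 14 with FG libraries alone, 5 to 11 when leaving out each library and 5 with mutant FG libraries 1 and 3 alone. Of all tested genes, 8.14% were lower under the median-of-ratios scaling. As TPM without mitochondrial genes 9.42% were lower and 8.23% higher, beside 13.4% and 10.1% in the reported fit. For the difference between stages, the 4 genes with the more positive change in eggs became 2 under the median-of-ratios scaling, and the count in the other direction (0) was 1 with no filter on low values (psma6l), 0 to 1 when leaving out each library and 1 with mutant FG libraries 1 and 3 alone. Of all tested genes, 2.05% had the more positive change in eggs under the median-of-ratios scaling, beside 4.23% in the reported fit. The 5 genes higher in eggs than in FG follicles became 9 in the wild type and 11 in the mutant under the median-of-ratios scaling. In each genotype, 38.4% of all tested genes were higher under that scaling. The cause of these shifts was not tested, except that fits on fewer libraries have fewer degrees of freedom. Apart from the scalings, the share of all tested genes under the alternatives is not given here. Those counts of proteasome genes therefore cannot be read against all genes.

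With the replicate number as a block over both stages, eggs kept 3 higher and 0 lower genes, FG follicles 3 and 9, and the difference 4 and 0. With the block nested in stage, eggs had 4 higher and 1 lower, and it changed no other genotype call. The settings with the nested block, with mutant FG libraries 1 and 3 averaged or alone, and with parts of the egg libraries were chosen after seeing the data.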

Other observations

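The core alpha gene psma6l, below the filter used for testing, had 0.0906, 0.420, 0.158 and 0.323 FPKM in wild-type FG follicles and 0.683, 1.01, 1.17 and 0.702 in mutant ones, without overlap. It passed in FG follicles when no filter was applied (log2 change 0.60, limma adjusted p = 0.000116), while psma6a and psma6b did not pass. In eggs psma6l was at or below 0.132 FPKM. It was named after its values were seen.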
